A study of Mus musculus with 60 samples.

Results

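Cortex of heterozygous female mice that had received fluoxetine was set beside cortex of untreated wild-type (WT) females, to ask how near the drug brings the heterozygous tissue to the untreated WT state. The comparison takes 10 of the 60 libraries of the series, 5 from each group, chosen by genotype, treatment and sex from the sample titles. The heterozygotes (HT) carry 1 Tbr1 allele with the K228E change and received fluoxetine. The WT mice received vehicle. All were C57BL/6J mice whose prefrontal cortex was taken on postnatal day 25, after 3 weeks of treatment from day 3 to day 24 through the milk of the mother. Where a difference needed a test of its own, 5 HT vehicle females and 5 WT fluoxetine females were added. The fits also held 5 HT and 5 WT females that had received lithium. Their libraries entered the gene filter, the shared estimate of the spread and the slopes of the covariates. No lithium group was compared here. Libraries of males were left out because those of vehicle males had formed a cluster of their own in an earlier analysis of these data.

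Tbr1 is a T-box transcription factor of glutamatergic neurons. It helps to specify the neurons of the deep cortical layers and is among the genes whose variants are linked to autism. Outside the cortex it is made in projection neurons of the olfactory bulb, as is its relative Tbx21. Fluoxetine blocks the serotonin transporter and so raises serotonin around the cells that carry its receptors.

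Poly(A) RNA was sequenced with a strand-marking kit, and each value is a gene's reads over the size factor of its library (normalised reads). The 10 libraries held 26706370 to 33297146 reads, and the 30 libraries of females 24693257 to 36515331. No litter, dam or batch is labelled. The p-values therefore measure only how far these samples spread, which may be technical. Pups of a litter would share the treatment that came through the mother. The dose is not given in the sources used here. Reads per gene cannot tell the K228E allele from the WT allele, so the genotype label was not checked by them.

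The compared groups were apart in olfactory bulb markers, genes of a structure next to the prefrontal cortex. The bulb list holds 7 genes, among them Th, Tbx21 and Trh. The mean of its log2 values was 9.13 to 10.9 in the 5 WT vehicle libraries and 3.85 to 6.86 in the 5 HT fluoxetine libraries, so the groups did not overlap. Summed over the list, the normalised reads were 6287 to 22899 in WT vehicle and 161 to 1397 in HT fluoxetine. None of the 7 markers was at 0 in any of the 10 libraries, and the lowest single value in HT fluoxetine was 2.13. HT vehicle libraries spread over most of the range of both groups, at 5.13 to 10.9, and WT fluoxetine libraries had 4.07 to 7.37. Markers of the labelled tissue were present throughout. The upper layer list summed to 34497 to 43999 in WT vehicle and 47775 to 53542 in HT fluoxetine, and the deep layer list to 13453 to 16005 and 16512 to 17240. Their mean log2 values overlapped between the groups. For the upper layer list they were 10.85 to 11.13 in WT vehicle and 11.08 to 11.22 in HT fluoxetine. For the deep layer list they were 9.34 to 9.64 and 9.29 to 9.50. Many results below are given with their value in a fit that holds 2 bulb terms as covariates (the list's mean log2 value and its linear counterpart). As the 2 groups do not overlap in those terms, that fit compares them at bulb levels that only other female libraries reach. The part of the bulb markers in the differences was not tested beyond this fit. In bulk tissue, fewer cells of a type and less RNA per cell cannot be told apart.

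The promoters of Tbr1, Tbx21 and Th are shown because Tbx21 and Th fell together between the groups while Tbr1 rose. Sequences are from RefSeq (GRCm38.p6), from 250 bases before to 50 after the start site, and all 3 symbols searched were matched. Tbr1 lies at chr2:61804203-61804502 (plus strand), Tbx21 at chr11:97115282-97115581 (minus strand) and Th at chr7:142899946-142900245 (minus strand). Capitals mark the palindromic cAMP response element TGACGTCA.
Tbr1: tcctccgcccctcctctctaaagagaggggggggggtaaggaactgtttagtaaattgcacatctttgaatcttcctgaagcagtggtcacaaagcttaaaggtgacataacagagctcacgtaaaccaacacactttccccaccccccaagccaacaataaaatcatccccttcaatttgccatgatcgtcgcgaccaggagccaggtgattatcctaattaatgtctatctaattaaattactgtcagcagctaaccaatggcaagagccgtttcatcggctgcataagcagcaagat
Tbx21: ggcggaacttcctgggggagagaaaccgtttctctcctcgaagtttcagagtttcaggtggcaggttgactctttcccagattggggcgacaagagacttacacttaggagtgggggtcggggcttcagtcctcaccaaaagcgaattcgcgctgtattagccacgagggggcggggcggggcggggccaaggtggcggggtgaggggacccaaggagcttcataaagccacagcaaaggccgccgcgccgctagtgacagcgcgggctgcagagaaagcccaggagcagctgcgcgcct
Th: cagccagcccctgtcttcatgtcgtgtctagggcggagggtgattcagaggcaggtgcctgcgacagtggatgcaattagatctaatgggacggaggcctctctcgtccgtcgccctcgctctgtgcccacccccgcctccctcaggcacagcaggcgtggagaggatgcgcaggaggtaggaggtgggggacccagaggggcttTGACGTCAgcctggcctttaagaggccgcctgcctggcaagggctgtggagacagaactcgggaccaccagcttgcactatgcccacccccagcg
The Th window held the element at position -45 from the start site, and the windows of Tbr1 and Tbx21 held none. Of 32851 windows of this length, 1.79% held it on either strand. The T-box half-site GGTGTGA, searched on both strands, was in 3.98% of those windows and in none of these 3. A match is a stretch of letters and not a shown binding site.

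HT fluoxetine cortex differed from WT vehicle cortex in a large share of its genes. With limma, 6459 of 17335 genes tested (37.3%) passed an adjusted p below 0.05, called changed from here on. Of all genes tested, 3376 (19.5%) were higher and 3083 (17.8%) were lower in HT fluoxetine. Most differences were small. The median absolute log2 difference was 0.21 over all genes and 0.40 over those called, and 1967 called genes differed by more than 1.5-fold. A called difference of more than 2-fold was found for 690 genes (3.98%), of which 162 were higher and 528 lower. The 5 values of each group did not overlap for 5273 genes (30.4%), with HT fluoxetine higher for 2806 (16.2%) and lower for 2467 (14.2%). For 4548 genes (26.2%) the 95% confidence interval of the difference lay inside 1.2-fold either way, and these were counted as near the WT vehicle level. The intervals were taken gene by gene, without adjustment for the number of genes tested. The count of calls fell to 4082 without WT vehicle replicate 2 and to 2714 without WT vehicle replicate 3. With the bulb covariates, 2 genes were called (0.0115%), 0 higher and both lower (2 of 17335, again 0.0115%), while 7478 genes (43.1%) lay inside 1.2-fold. For the gene lists below, 37.3% called and 26.2% inside 1.2-fold are the shares of all genes to set beside the counts.

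**Figure D1:**
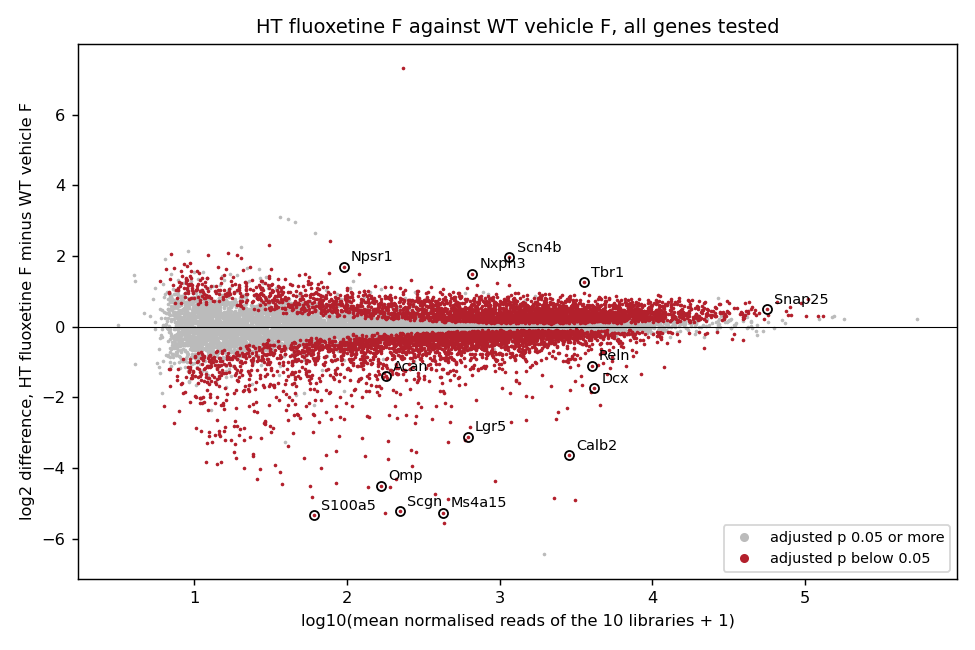
Each point is 1 of 17335 genes, with the log10 of its mean normalised reads plus 1 over the 10 libraries on the x axis and the log2 difference of HT fluoxetine minus WT vehicle on the y axis. Red points passed an adjusted p below 0.05. The genes furthest from 0 are mostly lower in HT fluoxetine, and S100a5 lies at -5.33 while Scn4b lies at 1.97. The highest point is Gm5641, a predicted gene at 0 in all 5 WT vehicle libraries, whose height therefore depends on the pseudocount.

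Over all genes, the fluoxetine-treated heterozygotes lay farther from the untreated WT mean than the vehicle-treated heterozygotes. Distance was the root mean square difference of the log2 values between a library and the mean of the 5 WT vehicle libraries. In HT fluoxetine it was 0.555, 0.538, 0.662, 0.576 and 0.615 in replicates 1 to 5. In HT vehicle it was 0.472, 0.414, 0.421, 0.616 and 0.406. The HT vehicle libraries lay below all HT fluoxetine libraries except replicate 4, which was also the HT vehicle library with the lowest bulb mean (5.13). The group means were 0.589 ± 0.049 and 0.466 ± 0.088 (SD, n = 5 each), and the difference of 0.123 had p = 0.0397 in an exact two-sided permutation test, whose smallest possible p is 0.00794. WT fluoxetine libraries had distances of 0.495 to 0.653, a range that holds 4 of the 5 HT fluoxetine values.

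The difference in distance kept its sign without each library in turn, at 0.101 to 0.161, but p ranged from 0.00794 to 0.0794. It was smallest without WT vehicle replicate 3 (exact permutation p = 0.0714) and largest without HT vehicle replicate 4 (exact permutation p = 0.00794). With the bulb covariates removed from the values the distances were 0.382 ± 0.012 in HT fluoxetine and 0.326 ± 0.031 in HT vehicle, with a difference of 0.0565 (exact permutation p = 0.0238). With covariates for striatum and choroid plexus markers in their place, the difference was 0.0426 (exact permutation p = 0.214). Both removals use fitted slopes, whose error is shared by the libraries of a group. The permutation test does not measure that error. HT fluoxetine lay farther from WT vehicle in bulb mean than HT vehicle did, so more of the bulb slope error enters its distances. Single pairs of libraries were compared too. The median distance of a WT vehicle library was 0.466 to another WT vehicle library, 0.525 to an HT vehicle library and 0.664 to an HT fluoxetine library. HT fluoxetine libraries lay at a median of 0.425 from WT fluoxetine libraries and of 0.432 from each other.

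**Figure D2:**
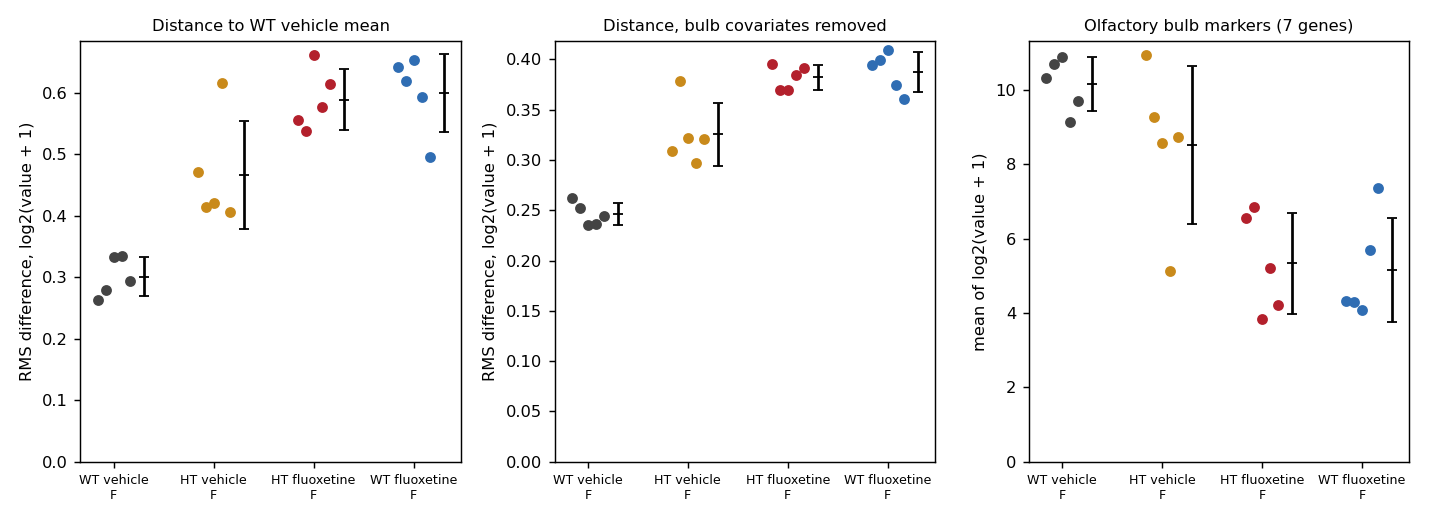
Points are the 5 libraries of each female group and bars are means with SD. The left panel gives the root mean square distance to the WT vehicle mean in log2 units, the middle panel the same after the bulb covariates were removed, and the right panel the mean log2 value of the 7 bulb markers. WT vehicle libraries are part of the mean they are measured from, so their distances are low by construction. HT vehicle replicate 4, at 0.616 on the left and 5.13 on the right, lies inside the HT fluoxetine range in both panels.

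The other female groups show which contrasts reached the threshold. HT vehicle and HT fluoxetine were each set against the same WT vehicle libraries, so the comparisons share controls. Between HT vehicle and WT vehicle, 0 of 17335 genes (0%) were called, with 1092 at an unadjusted p below 0.05. On reads, edgeR called 0 and DESeq2 4. Those 4 had log2 differences of 10.8 to 25.0 in DESeq2, and Gm5641 among them was at 0 in every WT vehicle library. The limma count was 1752 without HT vehicle replicate 1 and 4709 when libraries were weighted by their spread. The direct test of HT fluoxetine against HT vehicle called 0 genes (0%), with 3569 at an unadjusted p below 0.05, 0 by edgeR and 159 by DESeq2. Without HT vehicle replicate 4 it called 76 genes, and without HT fluoxetine replicate 4 it called 3. Thus a gene called in HT fluoxetine and not in HT vehicle is not shown to differ between these groups. Medians of the absolute log2 difference were 0.21 for HT fluoxetine against WT vehicle, 0.10 for HT vehicle against WT vehicle and 0.13 for HT fluoxetine against HT vehicle.

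HT and WT cortex under fluoxetine had a median absolute log2 difference of 0.048. With the striatum and choroid plexus covariates it was 0.098, above the values of HT vehicle against WT vehicle (0.068) and of HT fluoxetine against HT vehicle (0.079) in that fit. In the plain test 0 genes (0%) were called by limma, 310 had an unadjusted p below 0.05, edgeR called 0 and DESeq2 2. The genes called by DESeq2 were Man1a and Plcxd2. With the bulb covariates 2 were called (0.0115%), and no gene was called in either of the other tests of the HT vehicle libraries (0%). The 2 genes called with the bulb covariates were Tbr1 and Tshz2, a zinc finger homeobox gene. Tbr1 was 0.39 higher on the log2 scale (adjusted p = 0.0082) and Tshz2 0.42 higher (adjusted p = 0.0032). The same 2 genes were called when only these 10 libraries were fitted. Tshz2, Man1a and Plcxd2 fall outside the rule for named genes and were chosen after their values were seen.

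Tbr1 itself (ENSMUSG00000035033, GRCm38 chromosome 2, 61802930 to 61814114, plus strand) was higher in HT fluoxetine cortex than in any WT vehicle library. Its normalised reads were 2020, 1644, 1197, 3218 and 2894 in WT vehicle replicates 1 to 5 and 4742, 4994, 5238, 4619 and 5078 in HT fluoxetine. In HT vehicle they were 1167, 3168, 4304, 4980 and 4323, and in WT fluoxetine 3839, 3630, 3825, 3695 and 3700. WT vehicle had the lowest mean and a wide spread, and its highest values came from replicates 4 and 5, which had the lowest bulb means of their group. HT fluoxetine did not overlap WT vehicle or WT fluoxetine. The means were 2195 ± 846 in WT vehicle and 4934 ± 251 in HT fluoxetine (SD, n = 5 each), a log2 difference of 1.26 ± 0.28 (SE, adjusted p = 0.0049). With the bulb covariates it was 0.24 (adjusted p = 0.82). Against HT vehicle the log2 difference was 0.62 (adjusted p = 0.24), and against WT fluoxetine it was 0.40. The difference from WT fluoxetine passed with the bulb covariates and when only the libraries of those groups were fitted. It did not pass in the plain fit, in edgeR or DESeq2, or with library weights.

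**Figure D3:**
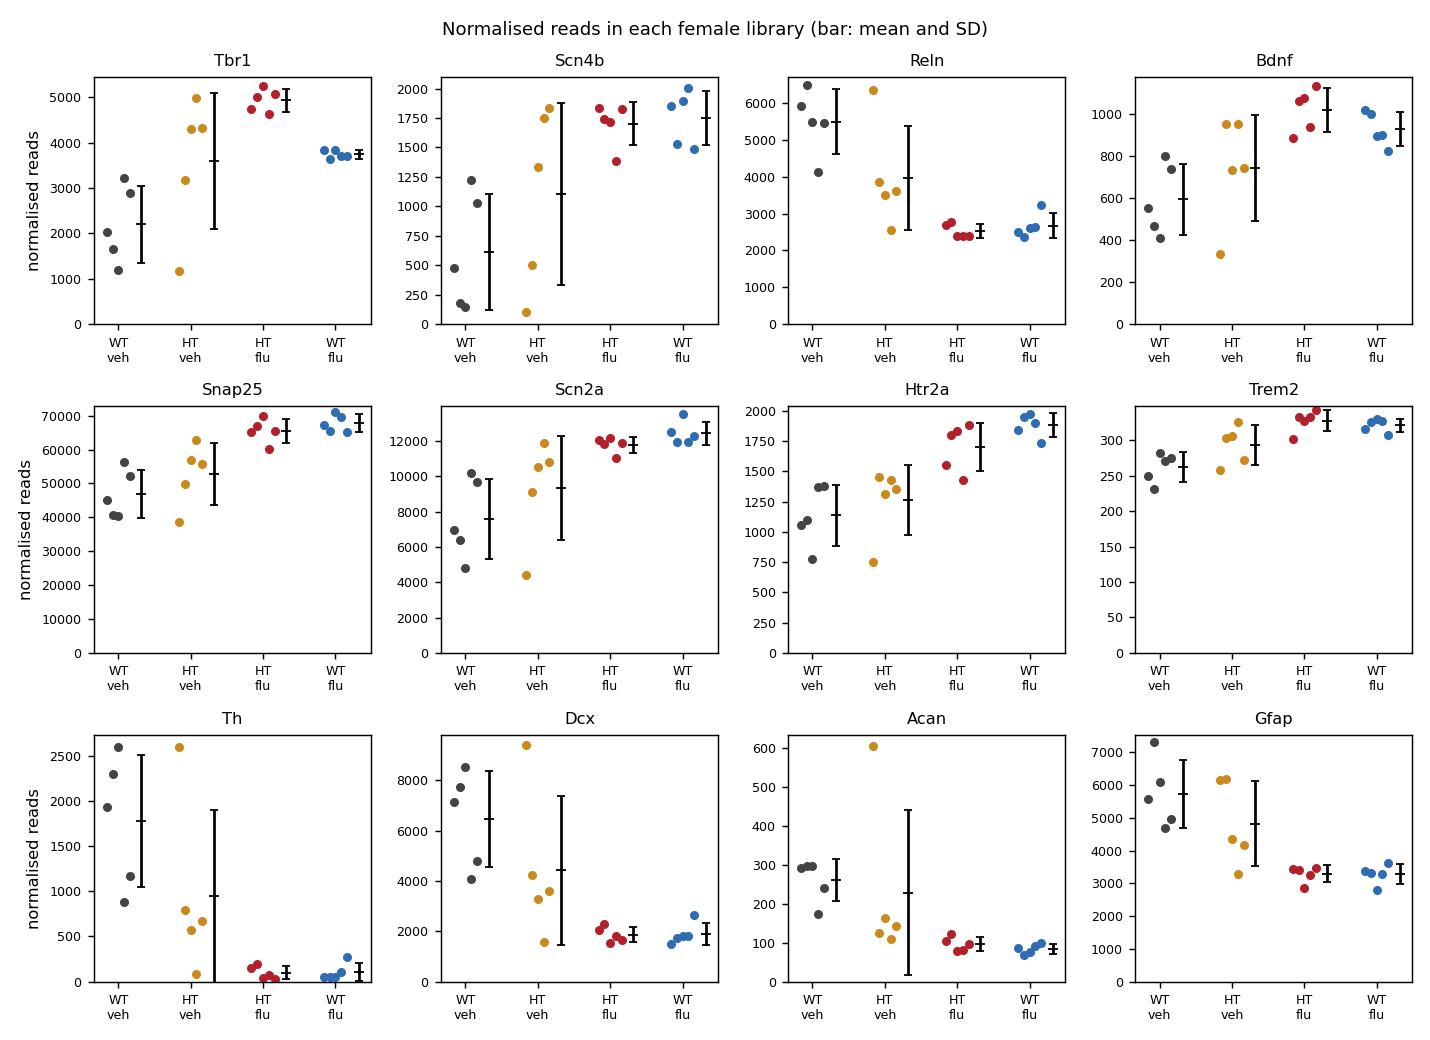
Normalised reads of 12 genes in each female library, with vehicle abbreviated veh and fluoxetine flu, and with the mean and SD beside each group. Bars that would reach below 0 are clipped there. The vehicle groups spread more than the fluoxetine groups in most panels, and HT vehicle replicate 1, the leftmost orange point, is the library of its group farthest from the HT fluoxetine mean in 11 panels and the next to farthest for Gfap.

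Among the genes with the largest rise were a sodium channel subunit, a neuropeptide receptor and secreted ligands of synaptic adhesion proteins. Scn4b, the beta 4 subunit of voltage-gated sodium channels, had 473, 174, 145, 1226 and 1032 normalised reads in WT vehicle and 1838, 1746, 1715, 1385 and 1827 in HT fluoxetine. All HT fluoxetine values lay above the WT vehicle values, but the WT values covered a wide range. The log2 difference was 1.97 ± 0.72 (adjusted p = 0.034), and edgeR and DESeq2 did not call it. The call was also lost without any 1 of 7 libraries, WT vehicle replicates 1, 2 and 3 among them. Npsr1, the receptor of neuropeptide S, rose from 50.2 ± 34.2 to 138 ± 14.3 (log2 difference 1.70, adjusted p = 0.0072). Nxph3 and Nxph2, secreted neurexophilins, rose from 402 ± 276 to 915 ± 61.6 and from 36.3 ± 18.7 to 75.7 ± 5.95 (adjusted p = 0.019 and 0.021), and both lost the call without WT vehicle replicate 2 or 3. Myl4, a myosin light chain, rose from 722 ± 238 to 1572 ± 56.0 (adjusted p = 0.0067). Also in this set were F2rl2, a protease-activated receptor (adjusted p = 0.012), Alox12b, a lipoxygenase (log2 difference 1.22), the long non-coding RNA Mirt1 (1.27) and the homeobox gene Sebox (1.30). Sebox lost its call in edgeR and DESeq2 and without any 1 of 8 libraries. With the bulb covariates none of these genes was called, and their differences ranged from -0.58 for Sebox to 0.38 for Alox12b.

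Outside the bulb list and at a mean of at least 50, the genes with the largest fall included S100a5, Omp and Scgn. These are known from olfactory sensory neurons and bulb interneurons. S100a5, a calcium-binding protein of olfactory sensory neurons, had 169, 96.0, 216, 52.6 and 51.3 normalised reads in WT vehicle and 7.33, 4.87, 0, 0.939 and 0 in HT fluoxetine. These groups were far apart, and the size of the fitted difference of -5.33 (adjusted p = 0.0037) depends on the pseudocount, since 2 libraries are at 0. Omp, the olfactory marker protein, fell from 320 ± 234 to 12.8 ± 9.48 (log2 difference -4.51, adjusted p = 0.0041). Scgn, the calcium sensor secretagogin of bulb interneurons, fell from 427 ± 219 to 17.1 ± 17.7. Ms4a15 fell from 813 ± 352 to 37.4 ± 41.8, Frmd7 from 875 ± 400 to 41.7 ± 38.5 and Dnah11, an axonemal dynein, from 358 ± 163 to 20.7 ± 19.3. Ppm1j, Nppa, Fam19a3 and Lbhd2 fell by 4.42 to 4.82 on the log2 scale. Given the bulb terms, the 10 differences of this set ranged from -0.92 for S100a5 to 0.67 for Ms4a15, and none was called.

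The bulb list and its neighbours in development fell together. Th, the enzyme that makes dopa in dopaminergic bulb interneurons, had 1935, 2294, 2597, 886 and 1174 normalised reads in WT vehicle and 150, 198, 37.3, 75.1 and 34.1 in HT fluoxetine. The lowest WT vehicle library was above the highest HT fluoxetine library by more than the spread of the latter. HT vehicle held the widest range, at 2591, 789, 576, 85.9 and 670, and WT fluoxetine had 53.7, 48.7, 48.3, 107 and 275. The log2 difference of HT fluoxetine and WT vehicle was -4.38 ± 0.81 (adjusted p = 0.0039). Tbx21, whose promoter is shown above, fell from 346 ± 135 to 9.87 ± 8.20 and Trh, a releasing hormone precursor, fell too (log2 difference -3.94). All 7 bulb markers were called lower, with a median log2 difference of -4.86. Of 14 genes of bulb interneurons, 13 were lower and 0 higher (median -2.27), among them Calb2, the calcium buffer calretinin (5275 ± 2179 to 432 ± 211), and the transcription factors Sp9 and Dlx5.

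Genes of immature neurons fell as well. Of 10 tested, 7 were lower and 1 higher (median -0.95). Dcx, the microtubule protein doublecortin of migrating neuroblasts, had 7122, 7744, 8521, 4096 and 4806 in WT vehicle and 2052, 2276, 1523, 1827 and 1669 in HT fluoxetine. The groups were apart in every library, with a log2 difference of -1.75 ± 0.39 (adjusted p = 0.0049). Sox4, a transcription factor of young neurons, fell by 1.25 and the surface protein Cd24a by 1.17 on the log2 scale. Given the bulb terms, Dcx stood at 0.15, Sox4 at 0.07 and Cd24a at -0.08. The medians of the bulb marker, bulb interneuron and immature neuron lists were then 0.11, 0.03 and 0.04. The bulb markers make up the terms themselves, so their mean difference vanishes there by construction and their median is no result. Between HT fluoxetine and WT fluoxetine in the plain fit, the medians of the 3 lists were 0.26, 0.02 and 0.01. None of the 10 genes of proliferation was called.

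Cortical layer genes moved in both directions. In the upper layer list, 6 of 12 were higher and 3 lower (median 0.30). Rorb, a nuclear receptor of layer 4 neurons, rose from 711 ± 125 to 1116 ± 79.2 (log2 difference 0.66, adjusted p = 0.0079). Mdga1, an adhesion protein that limits neuroligin binding, fell from 3345 ± 1411 to 978 ± 106 (-1.68, adjusted p = 0.0041), and the transcription factor Cux1 fell by 0.34 on the log2 scale (adjusted p = 0.0077). In the deep layer list, 3 of 14 were higher, Tbr1 among them, and 4 lower (median 0.20), with 50% called beside 37.3% of all genes. Syt6, a synaptotagmin of corticothalamic neurons, fell from 2610 ± 813 to 648 ± 160 and Nxph4, a subplate neurexophilin, from 230 ± 82.2 to 38.8 ± 13.7. Given the bulb terms, Syt6 stood at -0.08, Nxph4 at -0.52, Mdga1 at -0.13 and Rorb at 0.00, and the medians of the upper and deep layer lists at -0.02 and -0.16.

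Of 14 genes of cortical interneurons, 4 were higher and 7 lower (median -0.13). Reln, the secreted protein reelin that guides layering, had 5922, 6501, 5483, 4133 and 5476 in WT vehicle and 2692, 2778, 2394, 2384 and 2390 in HT fluoxetine. No library of either group came near the other, and the log2 difference was -1.11 ± 0.23 (adjusted p = 0.0041). HT vehicle libraries had 6356, 3848, 3501, 2563 and 3612, a range that reaches into both groups. Gad2, an enzyme of GABA synthesis, fell from 6455 ± 907 to 4025 ± 194 (-0.67, adjusted p = 0.0039) and Adarb2, an RNA-binding protein of interneurons of caudal origin, from 1377 ± 329 to 596 ± 57.8. Given the bulb terms, the 3 genes stood at -0.04, -0.12 and 0.00.

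Genes of the synapse were mostly higher in HT fluoxetine. On the presynaptic side, 16 of 24 were higher and 2 lower (median 0.33), beside 19.5% and 17.8% over all genes. Snap25, a SNARE protein of vesicle fusion, had 45008, 40808, 40365, 56205 and 52112 in WT vehicle and 65271, 67071, 69868, 60136 and 65554 in HT fluoxetine. Each HT fluoxetine library was above each WT vehicle library, and the log2 difference was 0.49 ± 0.13 (adjusted p = 0.0088). Cplx2, a complexin that clamps fusion, rose from 22062 ± 5326 to 33402 ± 1304. It lost the call without WT vehicle replicate 3. In the postsynaptic list, 13 of 20 were higher and 2 lower (median 0.31). Nlgn1, a neuroligin adhesion protein, rose by 0.46 on the log2 scale, the scaffold Dlg1 by 0.30 and Lrrtm1, an adhesion protein, by 0.33 (adjusted p = 0.0066, 0.0073 and 0.0087).

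Receptor genes split by subunit. Of 18 AMPA and NMDA receptor genes and auxiliary subunits, 8 were higher and 6 lower (median 0.20). The lower ones included Shisa9 and Shisa6, auxiliary proteins of AMPA receptors, which fell from 2461 ± 152 to 1871 ± 65.2 and from 698 ± 164 to 337 ± 30.3, and Grin2d, an NMDA receptor subunit, from 839 ± 203 to 476 ± 30.1. Of 17 genes of the inhibitory synapse, 9 were higher and 4 lower (median 0.27). The scaffold gephyrin (Gphn) fell by 0.20 on the log2 scale, with groups that did not overlap. Shisa9, Shisa6, Grin2d and Gphn stood at -0.13, -0.39, -0.21 and -0.06 in the fit with bulb covariates.

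Voltage-gated sodium and potassium channels were called in nearly every case. Of 23 genes, 16 were higher and 6 lower (median 0.46). Scn2a, a pore-forming sodium channel, had 6971, 6410, 4788, 10164 and 9657 in WT vehicle and 12025, 11821, 12153, 11007 and 11857 in HT fluoxetine. The groups did not overlap, with a log2 difference of 0.68 ± 0.21 (adjusted p = 0.015), though the call was lost without WT vehicle replicate 3. Scn3a, a sodium channel of the embryonic brain, fell from 2137 ± 196 to 1631 ± 59.5 and the potassium channel Kcnd3 from 2981 ± 345 to 2205 ± 82.6. Scn2a stood at 10495 or more in 3 of the 5 HT vehicle libraries and at 4402 in replicate 1, the one with the highest bulb mean. Given the bulb terms, the medians of the presynaptic, postsynaptic, AMPA and NMDA receptor, inhibitory synapse and channel lists were -0.08, -0.05, -0.08, -0.07 and -0.08, and no gene of them was called.

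Among 15 tested genes of serotonin receptors and handling, 6 were higher and 3 lower (median 0.41). Htr2a, the excitatory 5-HT2A receptor, had 1055, 1100, 777, 1368 and 1380 in WT vehicle and 1550, 1802, 1831, 1432 and 1887 in HT fluoxetine. All HT fluoxetine values were higher, with a log2 difference of 0.60 ± 0.17 (adjusted p = 0.011). Htr1f, an inhibitory receptor, fell from 119 ± 15.6 to 67.7 ± 6.27 (-0.80, adjusted p = 0.0041) and Htr7 from 233 ± 22.5 to 180 ± 13.5 (-0.37, adjusted p = 0.0077). Under fluoxetine in WT mice Htr2a had 1881 ± 97.7, Htr1f 68.9 ± 13.7 and Htr7 183 ± 15.5. In the bulb covariate fit, the 3 differences were 0.00, -0.14 and -0.15, and none was called.

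Neurotrophin genes changed in 5 of 9 cases, 3 higher and 2 lower (55.6% called, beside 37.3% of all genes). Bdnf, brain-derived neurotrophic factor, had 552, 466, 411, 799 and 738 in WT vehicle and 885, 1061, 1074, 938 and 1135 in HT fluoxetine. The ranges did not meet, and the log2 difference was 0.82 ± 0.22 (adjusted p = 0.0089). Its receptor Ngfr, the p75 neurotrophin receptor, fell from 69.5 ± 9.28 to 30.7 ± 3.54 (-1.15, adjusted p = 0.0041). In the bulb covariate fit, Bdnf stood at -0.02 and Ngfr at -0.37. Of 20 activity-regulated genes, 1 was higher and 3 lower (median -0.09), which is a smaller share than over all genes. The lower ones were the AP-1 genes Jun (1628 ± 125 to 1256 ± 149), Fosb (843 ± 290 to 432 ± 133) and Fosl2 (2494 ± 1058 to 1249 ± 277). Fosb and Fosl2 overlapped between the groups and lost their calls without WT vehicle replicate 3, and Fosl2 also without WT vehicle replicate 1 or HT fluoxetine replicate 3 or 4.

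Of 12 microglial genes, 8 were higher and 0 lower (median 0.29), with 66.7% called beside 37.3% of all genes. Trem2, a lipid-sensing receptor of microglia, had 250, 231, 282, 271 and 275 in WT vehicle and 302, 333, 327, 333 and 342 in HT fluoxetine. The difference was small but every HT fluoxetine library was higher, at 0.33 ± 0.07 on the log2 scale (adjusted p = 0.0042). Itgam, the integrin CD11b, rose by 0.43 and Tmem119, a marker of resident microglia, by 0.31 (adjusted p = 0.0074 and 0.012). These 3 stood at 0.24, 0.24 and 0.08 with the bulb covariates, where none was called. Of 12 astrocyte genes, 1 was higher and 3 lower, a share called (33.3%) near the 37.3% of all genes. Inside 1.2-fold lay 5 of them (41.7%, beside 26.2% of all genes). The filament gene Gfap fell from 5720 ± 1042 to 3294 ± 257 (-0.78, adjusted p = 0.0049), the water channel Aqp4 from 4175 ± 668 to 3092 ± 206 and the gap junction gene Gja1 from 5553 ± 535 to 4659 ± 226. Gja1 overlapped between the groups and lost its call without WT vehicle replicate 3. The 3 genes stood at -0.05, 0.03 and 0.02 with the bulb covariates.

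Of 9 genes of oligodendrocyte precursors, 1 was higher (Pdgfra, the receptor of their growth factor, by 0.22) and 4 lower, among them the transcription factor Sox10 (by 0.47). Both lost their calls without WT vehicle replicate 1 or 3, and Pdgfra also without HT fluoxetine replicate 4 or 5. None of 12 myelin genes was called, and Opalin, the nearest to the threshold, had 179 ± 63.2 and 299 ± 34.3 (adjusted p = 0.060). The lists of vessels, meninges and choroid plexus had shares of calls close to the 37.3% of all genes. In the list of endothelium and pericytes, 1 of 12 was higher and 3 lower, with Cldn5, a tight junction protein, at 1456 ± 155 and 1058 ± 82.4 and the pericyte gene Vtn at 2441 ± 242 and 1750 ± 81.7. Of 10 meningeal genes, 4 were lower, with the collagens Col3a1 and Col1a1 at -0.74 and -0.55. Col1a1 lost its call without HT fluoxetine replicate 3 or WT vehicle replicate 2 or 3. Of 8 genes of choroid plexus and ependyma, 3 were lower, with the water channel Aqp1 at a log2 difference of -3.16 and the ciliary factor Foxj1 from 181 ± 34.6 to 86.5 ± 10.6. In the bulb covariate fit, Cldn5 stood at -0.31, and the other genes of these 3 lists named here between -0.18 and 0.06. None of 6 blood genes was called (median -0.32, and -0.39 with the bulb covariates).

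Of 12 markers of the neighbouring striatum, 1 was higher and 2 lower (25% called, median 0.26, and -0.25 with the bulb covariates). Summed over the list, normalised reads were 9143 to 11176 in WT vehicle and 11552 to 12567 in HT fluoxetine, which do not overlap. Its mean log2 value, over members that went both ways, was 8.64 to 8.90 in WT vehicle and 8.62 to 8.88 in HT fluoxetine. Gng7, a G protein subunit, rose by 0.95, while Syndig1l, a synaptic membrane protein, fell by 2.58 and the enkephalin precursor Penk by 1.04 on the log2 scale. Gng7 lost its call without any 1 of 3 libraries and Penk without any 1 of 6, WT vehicle replicates 2 and 3 among both. The list of choroid plexus and ependyma had a mean log2 value of 4.72 to 5.80 in WT vehicle and 4.18 to 4.97 in HT fluoxetine, and these ranges overlap.

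Matrix and signalling genes linked to cortical development were more often lower. Of 10 genes of perineuronal nets, 2 were higher and 5 lower (median -0.14). Acan, the proteoglycan aggrecan that builds the nets, had 292, 297, 298, 175 and 242 in WT vehicle and 106, 122, 79.0, 82.6 and 96.0 in HT fluoxetine. The ranges did not overlap, and the log2 difference was -1.41 ± 0.37 (adjusted p = 0.0084). Vcan, another proteoglycan, and Tnc, the glycoprotein tenascin C, fell by 0.46 and 0.95. Of 20 Wnt pathway genes, 3 were higher and 8 lower (median -0.15), with 55% called beside 37.3% of all genes. Among the lower were the ligands Wnt5a (693 ± 164 to 289 ± 27.6) and Wnt7a (804 ± 288 to 285 ± 32.6) and the receptor Lgr5 (1099 ± 422 to 132 ± 72.1). In the bulb covariate fit, Acan stood at 0.18, Wnt5a at -0.05, Wnt7a at -0.02 and Lgr5 at 0.11.

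Of 16 genes reported as Tbr1 targets or partners, 7 were higher and 6 lower (81.25% called, beside 37.3% of all genes). The calls went both ways, and the median of the list (0.00) lay at that of all genes (0.01). Besides Reln, Auts2, a regulator of neuronal migration, fell from 2430 ± 295 to 1827 ± 57.1 (-0.40, adjusted p = 0.0078) and Ntng1, the axonal protein netrin G1, from 1095 ± 256 to 495 ± 40.7 (-1.12, adjusted p = 0.0041). In the bulb covariate fit, these stood at -0.02 and -0.05. Between HT fluoxetine and WT fluoxetine the median of the list was -0.02, with Reln at -0.07, Auts2 at -0.12 and Ntng1 at -0.01. Of 20 autism risk genes, 9 were higher and 1 lower (50% called), while 8 (40%) lay inside 1.2-fold (median 0.03). Over all genes these shares were 37.3% and 26.2%. Tbr1 and Scn2a are members of that list.

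Several lists held few calls or many genes near the WT vehicle level, beside 37.3% called and 26.2% inside 1.2-fold over all genes. The shares inside were 50% for cholesterol synthesis, 66.7% for endoplasmic reticulum stress, 47.6% for ribosomal proteins and 55.1% for oxidative phosphorylation. For the last 3 of these, the shares called were 26.7%, 12.2% and 12.8%. None of 16 genes of cholesterol synthesis was called, and for 8 of them the interval of the difference lay inside 1.2-fold. The median of this list was 0.04 in the plain fit and -0.18 with the bulb covariates. Sc5d and Msmo1, enzymes late in the pathway, were nearest to the threshold, at 0.19 (adjusted p = 0.073) and 0.26 (adjusted p = 0.099). Of 15 genes of endoplasmic reticulum stress, 10 lay inside 1.2-fold, 1 was higher and 3 lower. The chaperones Pdia4 and Hspa5 were lower, from 1111 ± 35.5 to 923 ± 80.9 and from 6870 ± 376 to 6077 ± 197, while in HT vehicle they had 1135 ± 84.9 and 7140 ± 412. After the bulb terms were fitted, these 2 stood at -0.21 and -0.15. Of 82 cytosolic ribosomal protein genes, 39 lay inside 1.2-fold, 0 were higher and 10 lower, with Rpl5 at 1314 ± 194 and 1033 ± 64.2. Rpl5 lost its call without WT vehicle replicate 3, and Hspa5 without WT vehicle replicate 1 or 5 or HT fluoxetine replicate 1 or 5. Of 78 nuclear-encoded genes of oxidative phosphorylation, 43 lay inside 1.2-fold, 7 were higher (Atp5s by 0.31, Ndufa5 by 0.20) and 3 lower (Ndufb2 by 0.34).

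Of 13 mitochondrially encoded genes, 5 were higher and 0 lower (median 0.27), a share called that is close to the 37.3% of all genes. mt-Atp8, a subunit of ATP synthase, had 11502, 10838, 10260, 12178 and 10958 in WT vehicle and 14787, 15297, 15744, 15975 and 15595 in HT fluoxetine. Every HT fluoxetine value was higher, and the log2 difference of 0.48 ± 0.07 had the smallest p of all genes before adjustment (adjusted p = 0.0026). mt-Nd2 and mt-Nd5, subunits of complex I, rose by 0.34 and 0.30, but quantile normalisation brought them to 0.00 and -0.05. The call of mt-Nd5 was lost without WT vehicle replicate 3 or HT fluoxetine replicate 3 or 4. Of 15 clock genes, 7 were higher and 0 lower (median 0.15), with 46.7% called beside 37.3% of all genes. Among the higher were the repressors Ciart (372 ± 44.1 to 529 ± 70.0) and Per2 (1185 ± 184 to 1562 ± 145) and the activator Npas2 (934 ± 219 to 1386 ± 73.3). Of 10 glucocorticoid-induced genes, 2 were higher and 2 lower, a share called (40%) close to that of all genes. The lower ones included Cdkn1a, a cell cycle inhibitor, at 1845 ± 548 and 1002 ± 70.1. Per2, Npas2 and Cdkn1a lost their calls without WT vehicle replicate 3. After the bulb terms were fitted, mt-Atp8 stood at 0.23, Ciart at 0.19, Per2 at 0.22, Npas2 at -0.10 and Cdkn1a at 0.12. The medians of the mitochondrial and clock lists were then 0.02 and -0.02.

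**Figure D4:**
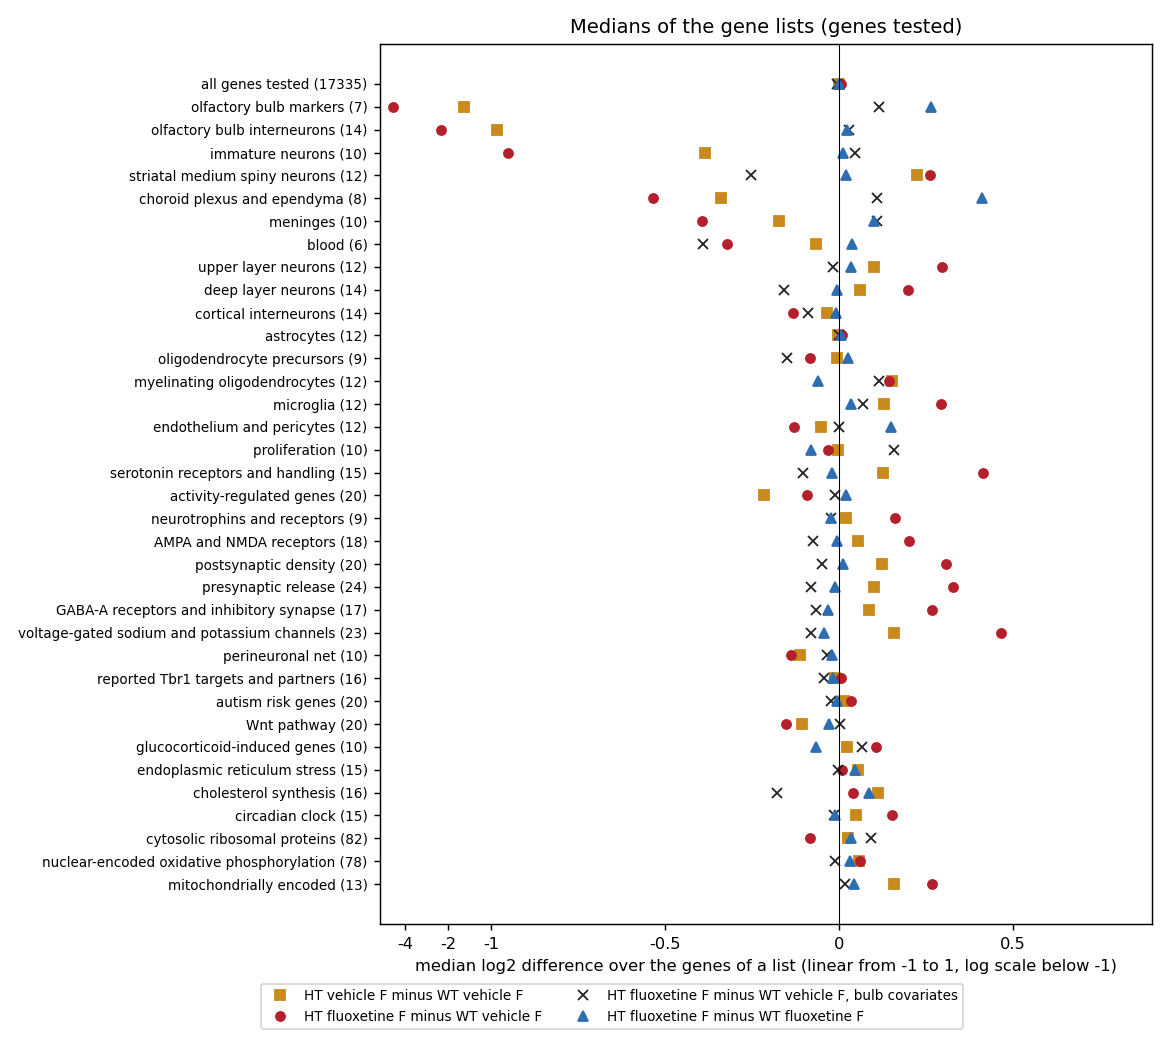
Median log2 difference over the genes tested of each list, with the number of genes in brackets. The axis is linear from -1 to 1 and logarithmic below -1. Red circles give HT fluoxetine minus WT vehicle, orange squares HT vehicle minus WT vehicle, black crosses the red contrast with the bulb covariates and blue triangles HT fluoxetine minus WT fluoxetine. For the channel list these are 0.46, 0.16, -0.08 and -0.04, and for the bulb markers -4.86, -1.54, 0.11 and 0.26. The bulb markers make up the covariates, so the black cross of that list is set by the fit. Red and orange share the WT vehicle libraries.

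After the bulb terms were fitted, genes with a mean of at least 50 were ranked by p between HT fluoxetine and WT vehicle. The 8 with the smallest p included 4 that the plain fit had not called. Arhgap25, a GTPase-activating protein of Rac, had 135, 96.0, 94.3, 233 and 236 in WT vehicle and 176, 192, 211, 194 and 175 in HT fluoxetine. The plain values overlap (log2 difference 0.37, adjusted p = 0.37), and the covariate fit put HT fluoxetine 0.88 lower (adjusted p = 0.030). Its level in WT fluoxetine was 259 ± 22.5, above every HT fluoxetine library. Castor2, a gene of nutrient sensing upstream of mTORC1, had 5382, 5174, 4793, 5015 and 5039 in WT vehicle and 4500, 4408, 4872, 4786 and 4511 in HT fluoxetine. The ranges overlap by 1 library on each side, and HT fluoxetine was lower in both fits, by 0.14 (adjusted p = 0.049) and by 0.32 with the covariates (adjusted p = 0.030). The plain call of Castor2 was lost without any 1 of 8 libraries.

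The other 6 genes of this set were not called with the covariates (adjusted p = 0.19 to 0.22). Pde1a, a phosphodiesterase activated by calmodulin, and Mmp17, a membrane metalloproteinase, had differences of 0.78 and 0.76 in the plain fit and -0.35 and -0.27 in the covariate fit. The plain call was lost without any 1 of 8 libraries for Pde1a and of 4 for Mmp17. Traf3, an adaptor of immune receptors, and Layn, a hyaluronan receptor, stood at -0.33 and -0.65 in the covariate fit. Tmem229b stood at -0.14 in the plain fit, where it was called, and at -0.22 with the covariates. H2-K1, a class I histocompatibility gene, stood at 0.70 with the covariates and at 0.19 without. Its HT fluoxetine values were 978, 628, 463, 538 and 552, so replicate 1 stood above the others, and the WT vehicle values were 571, 617, 614, 441 and 467.

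**Figure D5:**
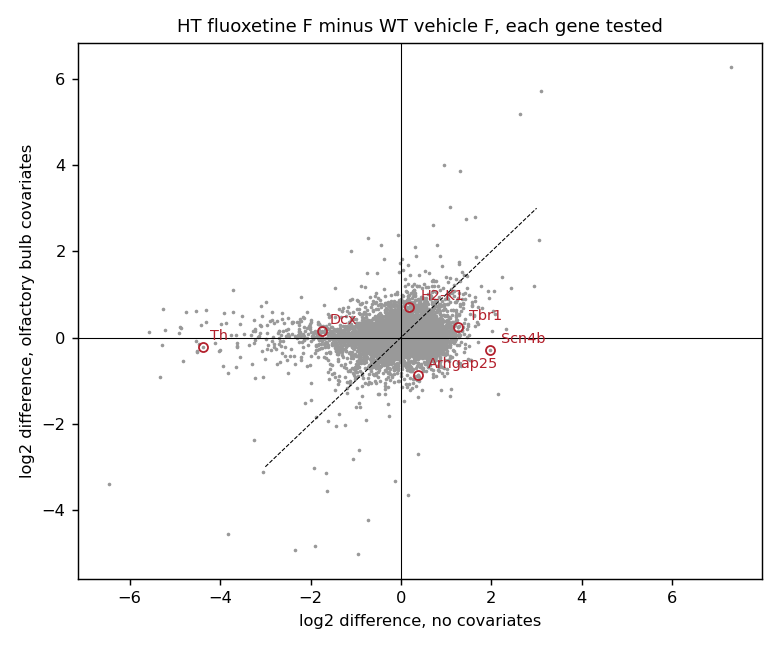
Each point is 1 gene, with the log2 difference of HT fluoxetine minus WT vehicle in the plain fit on the x axis and in the fit with the bulb covariates on the y axis. The dashed line marks equal values. Th moved from -4.38 to -0.23, Dcx from -1.75 to 0.15, Scn4b from 1.97 to -0.30 and Tbr1 from 1.26 to 0.24, while Arhgap25 moved from 0.37 to -0.88. Th is among the bulb markers that make up the covariates, so its move is in part set by the fit.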

How the data were processed

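The values are the authors' deposited table of normalised signal, each gene's reads over the size factor of its library. The submitters' processing notes name Salmon 0.11.2, R 3.6.0, DESeq2 1.19.11 and GRCm38. In every library 100% of the values were whole multiples of 1 step (tolerance 1e-06), so whole reads were recovered for edgeR 4.0.16 and DESeq2 1.42.0 as alternatives. As the deposited values are normalised, the main test was limma 3.58.1 (R 4.3.3) with a mean-variance trend on log2(value + 1). Differences therefore understate changes of low genes. The fit took the 30 female libraries in 6 groups of 5, the lithium groups among them, for genes with at least 10 in at least 5 libraries. Benjamini-Hochberg adjustment ran over 17335 genes, with a threshold of 0.05. Of 18088 identifiers, 18077 had a symbol. The script was tested on simulated data. No pair of libraries within WT vehicle or within HT fluoxetine agreed within sampling noise. Same-numbered libraries did not deviate together, so no block was used.

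The groups, gene lists and rules were chosen with earlier results of these data known. Named genes were Tbr1 and the 10 higher and 10 lower genes with the largest called differences. The higher and lower genes had a mean of at least 50, groups without overlap and no predicted genes among them. Bulb markers were left out of the lower ones. Also named were the 8 with the smallest p with the bulb covariates (mean of at least 50) and up to 3 with the smallest p of each list. Some genes of that rule are not reported here. Alternatives changed the pseudocount (0.5 or 5), the filter, the normalisation, the trend, the weights, the libraries fitted, the covariates, the block, the distance measure and the test, and left out each library in turn.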

Additional observations from a re-analysis of the deposited data

Results flagged for a closer look

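In 6 of 224 groups of 5 values, 1 library stood apart from the other 4 by more than Dixon's criterion of 0.71, which chance passes in about 1 in 20 groups. In HT fluoxetine, replicate 4 had 1385 normalised reads of Scn4b, against 1715 to 1838 in the others. The same library had 11007 of Scn2a, against 11821 to 12153. HT fluoxetine replicate 2 had 40.9 of Aqp1, against 15.0 to 22.0. HT fluoxetine replicate 5 had 56.5 of Htr1f, against 70.2 to 71.2. HT fluoxetine replicate 3 had 228.3 of Wnt7a, against 288 to 308. WT vehicle replicate 2 had 1215 of Col1a1, against 982 to 1036.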

How the results depend on the processing

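The 6459 calls between HT fluoxetine and WT vehicle became 2 with the bulb covariates, 4 with the same covariates in all 60 libraries (an alternative chosen after seeing the data) and 196 with covariates for striatum and choroid plexus. Without 1 library the count ran from 2714 to 7377. All other settings gave 5628 (a mean of at least 100, with fewer genes tested) to 9275. Genes inside 1.2-fold rose from 4548 to 7478 and 8250 in the 2 bulb fits. Between HT vehicle and WT vehicle the count of 0 became 4709 with library weights, 4 with DESeq2 and 0 to 1752 without 1 library. Between HT fluoxetine and HT vehicle it became 130 with weights, 159 with DESeq2 and 0 to 76 without 1 library. Between HT and WT under fluoxetine it became 2 with only those groups fitted, 6 with weights, 2 and 3 in the bulb fits and 2 with DESeq2. The difference in distance was 0.0426 with the striatum and choroid plexus covariates and 0.101 to 0.161 without 1 library. The cause of these changes was not tested. With the replicate number as a block the main count was 6719 and those of the other comparisons stayed at 0. Same-numbered libraries deviated with correlations of -0.079 to 0.038, so the numbers were not taken as pairs. No call among the named genes reversed without 1 library, and 76 of 99 kept the call without each library. Named genes whose sign changed with the bulb covariates had these log2 differences there. They were Scn4b -0.30, Nxph3 -0.19, Sebox -0.58, Nxph2 -0.077, Ms4a15 0.67, Scgn 0.18, Frmd7 0.25, Dnah11 0.61, Lbhd2 0.30, Arhgap25 -0.88, Pde1a -0.35, Mmp17 -0.27, Traf3 -0.33, Layn -0.65 and Sox4 0.068. They were Dcx 0.15, Gng7 -0.096, Penk 0.10, Aqp1 0.023, Col3a1 0.0082, Col1a1 0.053, Cux1 0.0058, Adarb2 0.0043, Aqp4 0.033, Gja1 0.016, Vtn 0.060, Htr2a -0.0015, Fosb 0.13, Fosl2 0.23 and Bdnf -0.024. They were Lrrtm1 -0.011, Snap25 -0.023, Cplx2 -0.096, Scn3a 0.0075, Kcnd3 0.037, Acan 0.18, Vcan 0.059, Scn2a -0.081, Lgr5 0.11, Cdkn1a 0.12, Sc5d -0.094, Msmo1 -0.20 and Npas2 -0.10. Quantile normalisation gave mt-Nd2 -1.8e-05 and mt-Nd5 -0.049. The striatum and choroid plexus covariates gave Arhgap25 -0.28, Traf3 -0.022 and Layn -0.23, none of which was called in the plain fit. With 5 libraries a group, the number of samples limits the precision.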
